A study of Rattus norvegicus with 9 samples.

Results

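Expression of 10 receptor genes for adenosine and extracellular nucleotides was compared in the rat between hippocampus (HC), prefrontal cortex (PFC) and blood. The genes are Adora1, Adora2a, Adora2b and Adora3, which encode the adenosine receptors A1, A2a, A2b and A3, together with P2rx1, P2rx4, P2rx7, P2ry1, P2ry2 and P2ry13, which encode receptors of the P2 class. They were chosen by name, as the probe sets whose annotated symbol is 1 of these, and each had exactly 1 probe set among the 29214 with values and the 14511 genes with a single symbol. All groups came from male Wistar rats that had received no treatment, with no transgene or other genetic change. Each of the 3 tissues was represented by 3 Rat Gene 1.0 ST arrays, whole-transcript arrays with 1 colour, and each array held RNA of 1 rat (numbers 2, 5 and 7). Blood was collected after decapitation into tubes with an RNA stabilizer, and HC and PFC were punched from frozen brain sections. Blood RNA and brain RNA were extracted with different kits, so tissue and extraction cannot be told apart.

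The adenosine and P2 receptors together are called purinergic receptors. ATP and other nucleotides that leave a cell act on P2X receptors, which are ion channels, and on P2Y receptors, which couple to G proteins. Enzymes on the cell surface then break the nucleotides down to adenosine, which acts on the G protein-coupled adenosine receptors. A1 dampens transmitter release at synapses, A2a restrains activated leukocytes and is dense in the striatum, P2X1 and P2Y1 are platelet receptors, and P2X4, P2X7 and P2Y13 are known from microglia and other myeloid cells.

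Values are RMA values (robust multi-array average), taken to be log2, so a difference of 1 is a 2-fold change. Presence means an average over the 3 arrays of a tissue above 6.2, the level used in the study. By that measure 7 of the 10 genes were present in blood, 6 in HC and 5 in PFC, beside 55.3%, 58.0% and 58.2% of all named genes and 46.9%, 47.2% and 47.1% of all probe sets. Adora1, Adora2a, P2rx4 and P2ry13 were present in all 3 tissues, P2rx7 in both brain regions, Adora2b in HC, and P2rx1, P2ry1 and P2ry2 in blood. Adora3 was present in none. Levels of different genes were not set against each other, because probe sets differ in their response.

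Array means lay between 6.15 and 6.2. Arrays of the same tissue ranked the probe sets alike, with Spearman's rho of 0.957 to 0.968 among blood arrays and 0.995 to 0.996 among those of either brain region. The median SD over probe sets was 0.24 for the blood arrays, 0.08 for HC and 0.09 for PFC, so the error of most differences came from the blood arrays. Neuronal and astrocyte markers were above 6.2 in HC and PFC for 7 of 7 and 6 of 6 genes, and erythroid markers in blood for 5 of 5. In each brain region 1 erythroid marker was above 6.2, Hbb, at 8.69 in HC and 9.66 in PFC. The summed linear level of the erythroid list was 442 to 613 in HC, 781 to 1281 in PFC and 34663 to 37597 in blood. The part of blood left in the brain samples was not tested. All 6 markers of hippocampal fields were above 6.2 in HC, and 3 of them in PFC as well. Of the neocortical layer markers only 1 was measured, Fezf2, which averaged 8.17 in HC and 8.58 in PFC. Of 5 choroid plexus markers only Ttr averaged above 6.2 in HC, at 10.42 against 4.35 in PFC, and Kcnj13 was slightly the other way, at 5.43 and 5.64. These are bulk samples, in which fewer cells of a type and less RNA per cell cannot be told apart.

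Promoters of the members were read to show the sequence in front of genes that lie next to each other or differ most between blood and brain. RefSeq gives a start and 300 bases around it, 250 before and 50 after, in build GRCr8 for 9 of the 10 genes, all but Adora2a. The listed start need not be the one used in these tissues. P2rx1 is shown for its blood-sided values, Adora1 and P2rx7 for their brain-sided values, and P2rx4 because it is the neighbour of P2rx7 on chromosome 12. The windows are chr10:58116857-58117156 on the plus strand for P2rx1, and on the minus strand chr13:48246782-48247081 for Adora1, chr12:39594873-39595172 for P2rx7 and chr12:39523040-39523339 for P2rx4. Capitals mark matches, on either strand, to the letters searched.
P2rx1: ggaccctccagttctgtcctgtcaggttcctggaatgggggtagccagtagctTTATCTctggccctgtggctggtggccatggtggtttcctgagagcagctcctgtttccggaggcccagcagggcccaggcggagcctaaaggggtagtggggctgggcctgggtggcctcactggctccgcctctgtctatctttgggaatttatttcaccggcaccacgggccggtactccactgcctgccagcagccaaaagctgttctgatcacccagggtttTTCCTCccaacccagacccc
Adora1: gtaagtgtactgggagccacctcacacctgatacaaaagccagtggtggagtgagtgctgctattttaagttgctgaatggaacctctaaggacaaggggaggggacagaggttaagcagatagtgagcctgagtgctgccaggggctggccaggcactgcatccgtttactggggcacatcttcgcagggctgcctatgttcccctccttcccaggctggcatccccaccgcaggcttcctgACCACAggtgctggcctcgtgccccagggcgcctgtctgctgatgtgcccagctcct
P2rx7: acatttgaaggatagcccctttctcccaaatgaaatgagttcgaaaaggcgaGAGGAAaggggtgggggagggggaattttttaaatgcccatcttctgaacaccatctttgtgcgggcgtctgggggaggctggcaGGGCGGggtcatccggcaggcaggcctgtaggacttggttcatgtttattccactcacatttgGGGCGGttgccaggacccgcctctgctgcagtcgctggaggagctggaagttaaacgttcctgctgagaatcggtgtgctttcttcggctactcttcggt
P2rx4: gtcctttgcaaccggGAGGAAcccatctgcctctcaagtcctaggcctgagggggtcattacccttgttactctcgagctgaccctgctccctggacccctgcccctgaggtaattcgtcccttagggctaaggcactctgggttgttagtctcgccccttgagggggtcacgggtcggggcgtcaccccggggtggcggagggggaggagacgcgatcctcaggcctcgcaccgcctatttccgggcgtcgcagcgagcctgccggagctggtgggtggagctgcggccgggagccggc

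A total of 6 short motifs were searched on both strands. They were the GC box GGGCGG, held by 33.1% of all 33469 promoters of that length, the TATA box TATAAA (14.2%), the PU.1 core GAGGAA (27.6%), the GATA core AGATAA (11.6%), the RUNX core TGTGGT (17.3%) and the CRE TGACGTCA (1.83%). The P2rx1 window held 1 PU.1 core and 1 GATA core, and the Adora1 window 1 RUNX core. P2rx7 held 2 GC boxes and 1 PU.1 core, and P2rx4 held 1 PU.1 core. Among the promoters not printed, Adora2b held 4 GC boxes and 1 PU.1 core, P2ry2 held 3 GC boxes, P2ry1 held 2 and Adora3 held 1 PU.1 core and 1 GATA core, while P2ry13 held none of the 6. No matches overlapped. A match describes the letters and is not a bound site.

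The first question of the study is which genes are expressed in blood and in brain and at what level. Differences were tested with limma across all 29214 probe sets and called at a Benjamini-Hochberg adjusted p under 0.05. HC exceeded blood for 3 of the 10 genes, and 29% of all probe sets were called higher. HC was below blood for 6 genes, and 46.5% of all probe sets were called lower. PFC exceeded blood for 2 genes, against 28.7% of all probe sets, and was below it for 6 genes, against 47%. Shares this close to those of all probe sets are not a result about the 10 genes as a group. The median log2 difference of the 10 genes was −0.68 in HC and −0.60 in PFC, beside −0.30 and −0.31 over all probe sets. In a fit of the 14511 named genes, 1 probe set each, the median was −0.12 in both regions. That fit called 5477 genes higher and 6128 lower in HC, and 5503 and 6141 in PFC. Both comparisons use the same blood arrays, so they are given side by side and not as independent results.

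**Figure D1:**
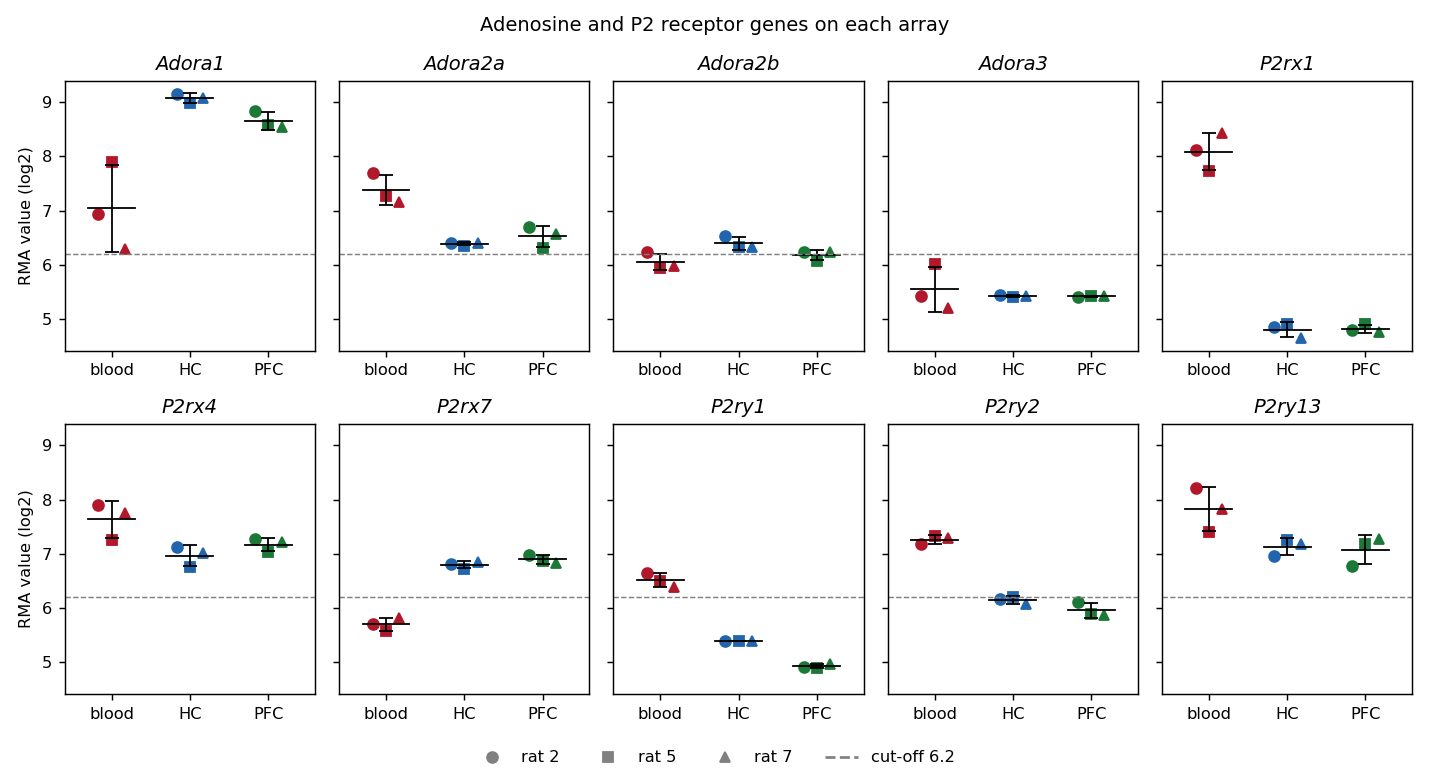
RMA values (log2, vertical axis) of the 10 genes on each of the 9 arrays, with circles, squares and triangles for rats 2, 5 and 7, horizontal lines for means, bars for SD (n = 3) and a dashed line at 6.2. Adora1 and P2rx7 sat higher in HC and PFC than in blood on every array, P2rx1 lay between 7.73 and 8.42 in blood and below 5 in the brain regions, and Adora1 varied most between the blood arrays.

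Among the adenosine receptors, Adora1 was higher in brain and Adora2a higher in blood. Adora1, whose product inhibits adenylyl cyclase, read 9.16, 8.99 and 9.08 in HC of rats 2, 5 and 7 and 8.84, 8.57 and 8.54 in PFC. In blood it read 6.93, 7.90 and 6.29. Every brain array exceeded every blood array, and the blood of rat 5 stood above that of the other rats. HC averaged 9.08 ± 0.09 (SD, n = 3), PFC 8.65 ± 0.16 and blood 7.04 ± 0.81, the widest spread of any member in any tissue. HC exceeded blood by 2.04 ± 0.32 (SE), or 4.10-fold (limma adjusted p = 0.000297), and PFC exceeded blood by 1.61 ± 0.32, or 3.06-fold (limma adjusted p = 0.00134). When the arrays were scaled to a housekeeping panel, the PFC difference was 0.91 and missed the threshold (limma adjusted p = 0.0522). In the GRCr8 gene table Adora1 overlaps Mybph.

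Adora2a, whose product raises cyclic AMP, read 7.70, 7.28 and 7.16 in blood of rats 2, 5 and 7. It read 6.41, 6.35 and 6.40 in HC and 6.69, 6.32 and 6.57 in PFC. All blood arrays lay above all brain arrays, and HC and PFC overlapped. Adora2a was lower than in blood by a log2 difference of −0.99 ± 0.15 in HC (limma adjusted p = 0.000221) and −0.85 ± 0.15 in PFC (limma adjusted p = 0.000595). Because this gene is dense in striatal projection neurons, 7 markers of those cells were read beside it. Of these, 3 were above 6.2 in HC and 4 in PFC, their summed linear level was 744 to 789 in HC, 850 to 938 in PFC and 461 to 554 in blood, and Drd2, a defining gene, averaged 4.97 in HC, 5.26 in PFC and 5.22 in blood. Penk, which marks the same neurons, averaged 6.76 in HC and 7.69 in PFC against 5.53 in blood, and Gnal 7.86 and 7.59 against 5.57. Gpr6 went the other way, at 5.79 in HC and 5.82 in PFC against 6.29 in blood. Rgs9 was nearly level, at 6.06, 6.09 and 6.08. The markers of the list thus did not share a direction. The 6 T cell markers were all above 6.2 in blood, with a summed level of 3345 to 5741 against 262 to 282 in HC and 159 to 182 in PFC. In HC 1 of them was above 6.2, Cd3e, at 7.14 against 5.04 in PFC, and in PFC none was. The part of T cells in the Adora2a values was not tested.

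Adora2b, the low-affinity receptor for adenosine, lay near the presence level in all tissues. It read 6.54, 6.32 and 6.33 in HC of rats 2, 5 and 7, 6.23, 6.07 and 6.23 in PFC and 6.23, 5.95 and 5.98 in blood, with 1 deposited value shared by 3 arrays. HC arrays stood above all others, and PFC and blood overlapped. HC exceeded blood by 0.34 ± 0.11 (limma adjusted p = 0.0192), but the sign turned under housekeeping scaling, to −0.28 (limma adjusted p = 0.0564). The HC call was also lost without the HC array of rat 2 and without either rat 5 or rat 7 (limma adjusted p up to 0.0984). PFC minus blood was 0.13 with a 95% interval of −0.13 to 0.38 (limma adjusted p = 0.322), and under housekeeping scaling it turned to −0.58 (limma adjusted p = 0.00168).

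Adora3, a receptor known from mast cells and neutrophils, read 5.43, 6.02 and 5.21 in blood, 5.45, 5.41 and 5.43 in HC and 5.41, 5.43 and 5.43 in PFC. No array reached 6.2, the blood of rat 5 was highest, and blood overlapped both brain regions. Exactly 1 deposited value occurred on 4 arrays of all 3 tissues. HC minus blood was −0.12 (95% interval −0.52 to 0.27, limma adjusted p = 0.541) and PFC minus blood −0.13 (−0.52 to 0.27, limma adjusted p = 0.521). The blood arrays decided these values, since the difference was 0.11 in both regions without the blood of rat 5, and −0.29 in HC and −0.30 in PFC without that of rat 7, with no call in either. Under housekeeping scaling both passed the threshold, at −0.75 and −0.83 (limma adjusted p = 0.0156 and 0.00907). Adora3 overlaps Tmigd3 in the GRCr8 gene table, and the array lists its symbol under 2 gene identifiers.

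The 3 P2X channels differed from each other in direction. P2rx1, an ATP-gated channel of platelets and smooth muscle, read 8.11, 7.73 and 8.42 in blood of rats 2, 5 and 7. It read 4.85, 4.91 and 4.64 in HC and 4.80, 4.91 and 4.76 in PFC. The groups of blood and brain were far apart, and the brain means fell below a background limit, the 95th percentile of 1292 probe sets of olfactory, vomeronasal and taste receptors (4.87 in HC and 4.84 in PFC). The log2 difference was −3.29 ± 0.16 in HC and −3.27 ± 0.16 in PFC (limma adjusted p = 7.61e-08 and 7.8e-08), the widest of the 10 genes in both comparisons. With the brain values raised to the limit, P2rx1 was at least 9.33-fold lower in HC and at least 9.47-fold lower in PFC. All 3 platelet markers measured were above 6.2 in blood and none in brain, with a summed linear level of 4142 to 6106 in blood, 118 to 137 in HC and 129 to 139 in PFC. Among the blood arrays, rat 5 was lowest in P2rx1 and in the mean of the platelet markers, and also in that of the T cell markers. P2ry1, likewise a platelet receptor, was lowest in rat 7 at 6.39, where the platelet mean was highest at 10.30. The part of platelets in the P2rx1 difference was not tested.

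P2rx4 and P2rx7 are neighbours on chromosome 12 and went opposite ways. P2rx7, the channel through which high ATP drives release of IL-1 beta from myeloid cells, read 6.82, 6.73 and 6.85 in HC of rats 2, 5 and 7. In PFC it read 6.98, 6.87 and 6.84, and in blood 5.71, 5.57 and 5.82. Every brain array exceeded every blood array, and HC and PFC overlapped. P2rx7 was higher by 1.10 ± 0.10 in HC, or 2.15-fold, and by 1.20 ± 0.10 in PFC, or 2.29-fold (limma adjusted p = 5.08e-06 and 2.72e-06). Both calls held in all 12 fits without an array or a rat, and under housekeeping scaling the differences were 0.47 and 0.49 (limma adjusted p = 0.00101 and 0.000744).

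P2rx4, an ATP-gated channel of macrophages and endothelium, read 7.90, 7.25 and 7.75 in blood of rats 2, 5 and 7. It read 7.12, 6.76 and 7.02 in HC and 7.27, 7.03 and 7.21 in PFC. In each rat blood was the highest of the 3 tissues, HC lay wholly below blood, and the blood of rat 5 reached down among the PFC arrays. The log2 difference was −0.67 ± 0.17 in HC (limma adjusted p = 0.00577) and −0.47 ± 0.17 in PFC (limma adjusted p = 0.0325). The PFC call held in 6 of the 12 fits without an array or a rat, and was lost without the PFC array of rat 5 or 7, the blood array of rat 2 or 7, or rat 2 or 7 altogether, with an adjusted p of up to 0.181 in limma. It was also lost with arrays scaled to the same median (limma adjusted p = 0.0675) and in the fit of the 6 arrays of blood and PFC (limma adjusted p = 0.0531). The HC call held in 11 of 12, the exception being the fit without rat 7 (limma adjusted p = 0.0688). P2rx4 also overlaps the end of Camkk2 in the GRCr8 gene table.

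**Figure D2:**
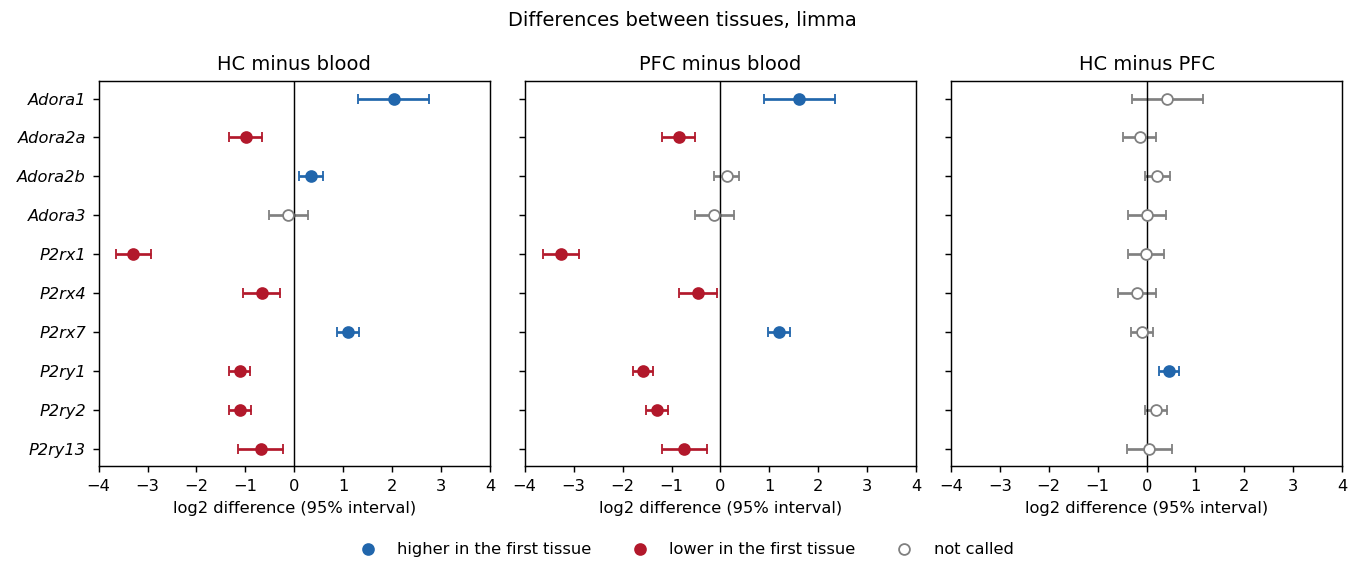
Log2 differences with 95% intervals from limma for each gene (rows) in HC minus blood, PFC minus blood and HC minus PFC, with filled blue for called higher in the first tissue, filled red for called lower and open grey for not called. Adora1 and P2rx7 lay to the right of 0 against blood in both regions, P2rx1 lay farthest to the left, and P2ry1 was the 1 gene called between HC and PFC.

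The 3 P2Y genes were all lower in HC and PFC than in blood. P2ry1, the receptor through which ADP starts platelet shape change, read 6.65, 6.50 and 6.39 in blood of rats 2, 5 and 7. It read 5.40, 5.39 and 5.39 in HC and 4.92, 4.90 and 4.97 in PFC. The 3 tissues did not overlap, with blood highest and PFC lowest, and no brain array reached 6.2. The log2 difference from blood was −1.12 ± 0.09 in HC and −1.58 ± 0.09 in PFC (limma adjusted p = 3.04e-06 and 2.46e-07), or 2.17-fold and 2.99-fold lower.

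P2ry2, a receptor for both ATP and UTP, read 7.18, 7.33 and 7.28 in blood. It read 6.17, 6.21 and 6.07 in HC and 6.12, 5.89 and 5.86 in PFC. Blood stood apart from both brain regions, and HC and PFC overlapped around and under the presence level. The log2 difference was −1.11 ± 0.10 in HC and −1.30 ± 0.10 in PFC (limma adjusted p = 6.06e-06 and 1.91e-06). P2ry2 lies next to P2ry6 on chromosome 1 and overlaps Fchsd2, which is on the opposite strand.

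P2ry13, an ADP receptor of myeloid cells, read 8.22, 7.40 and 7.83 in blood of rats 2, 5 and 7. It read 6.97, 7.26 and 7.17 in HC and 6.78, 7.17 and 7.28 in PFC. All blood arrays were above all brain arrays, but the blood of rat 5 was only narrowly so. The log2 difference was −0.69 ± 0.21 in HC (limma adjusted p = 0.0128) and −0.74 ± 0.21 in PFC (limma adjusted p = 0.00871). Without rat 2 the differences were −0.40 and −0.39 and the calls were lost (limma adjusted p = 0.0782 and 0.0822), and without rat 7 both were lost as well (limma adjusted p = 0.0837 and 0.05004). P2ry13 is located beside P2ry12 on chromosome 2, within Med12l, which is on the opposite strand.

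Microglial markers were read beside the myeloid receptors, because P2rx4, P2rx7 and P2ry13 are known from those cells. Of 10 markers measured, 7 were above 6.2 in each of the 3 tissues, and the summed linear level was 1603 to 1764 in blood, 1526 to 1568 in HC and 1387 to 1558 in PFC. C1qa, a complement gene of microglia, averaged 5.60 in blood, 7.59 in HC and 7.57 in PFC, whereas Csf1r, which monocytes share, averaged 9.08, 8.71 and 8.60. Trem2 was below 6.2 on every array. The blood sums therefore lay narrowly above the brain sums. The mean log2 level of the list overlapped, at 6.86 to 7.06 in blood, 6.94 to 7.01 in HC and 6.81 to 6.98 in PFC. P2ry12, 1 of the genes of this list, is also a P2 receptor. The 8 neutrophil markers were all above 6.2 in blood and none in brain, and of 7 monocyte markers all were above it in blood and 3 in each brain region. The summed linear level of the neutrophil list was 3661 to 4877 in blood, 198 to 210 in HC and 197 to 220 in PFC, and that of the monocyte list 9322 to 10853 in blood, 853 to 873 in HC and 827 to 939 in PFC. Their part in the blood values of P2rx4 and P2ry13 was not tested.

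Blood arrays also differed among themselves. The blood of rat 5 was highest in Adora1, Adora3 and P2ry2 and lowest in Adora2b, P2rx1, P2rx4, P2rx7 and P2ry13. Its mean level over the 6 T cell markers was 8.89, against 9.46 in rat 2 and 9.64 in rat 7, and over the 8 neutrophil markers it was 8.87, against 8.54 and 8.32. Over the 3 platelet markers it was 9.85, against 10.15 and 10.30. With 3 arrays no relation between these values can be tested.

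The next comparison asks where the 2 brain regions differ. P2ry1 was the 1 member called, with HC above PFC by 0.46 ± 0.09 (95% interval 0.25 to 0.67, limma adjusted p = 0.0206), against 4.44% of all probe sets called in either direction. Its HC arrays, at 5.39 to 5.40, lay above its PFC arrays, at 4.90 to 4.97, in all 3 rats, although both regions were under the presence level. The HC arrays of rats 5 and 7 shared 1 deposited value. In PFC the mean of 4.93 lay close above the background limit of 4.84. The call was lost with the rat as a block (limma adjusted p = 0.0565), under housekeeping scaling, and whenever any HC or PFC array or any rat was left out. The other 9 members did not pass. At an unadjusted p under 0.05 in limma the count was also 1.

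Adora1 was higher in HC than in PFC on every array, by 0.42 with a 95% interval of −0.30 to 1.15 (limma adjusted p = 0.828). Fitted on the 6 brain arrays alone, which leaves out the wide spread of blood, Adora1 passed (limma adjusted p = 0.0326). Adora2b likewise did not overlap between the regions, at 0.22 with an interval of −0.04 to 0.47 (limma adjusted p = 0.548). For the remaining genes the regions overlapped, with differences of −0.14 (−0.47 to 0.20) for Adora2a, −0.20 (−0.59 to 0.18) for P2rx4, −0.10 (−0.32 to 0.12) for P2rx7 and 0.19 (−0.04 to 0.42) for P2ry2. P2ry13 differed by 0.06 (−0.41 to 0.52), P2rx1 by −0.02 (−0.39 to 0.35), with both regions below the background limit, and Adora3 by 0.01 (−0.39 to 0.40). A miss of the threshold does not show that the regions were alike.

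Order of the tissues can be read for each gene from these values. For Adora1 it was HC, PFC and blood, and HC and PFC did not differ beyond the error of the 9-array fit. For Adora2a, P2rx1, P2rx4, P2ry2 and P2ry13 blood was highest, for P2rx7 it was lowest, and the 2 brain regions did not differ beyond their error. For P2ry1 it was blood, HC and PFC, with the step from HC to PFC lost under the block, under housekeeping scaling and in 9 of 12 fits without an array or a rat. For Adora2b HC stood above blood on the deposited scale, and PFC did not differ from either beyond the error. That step from blood to HC held in 9 of 12 fits without an array or a rat, and its sign turned under housekeeping scaling. For Adora3 no step was called.

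**Figure D3:**
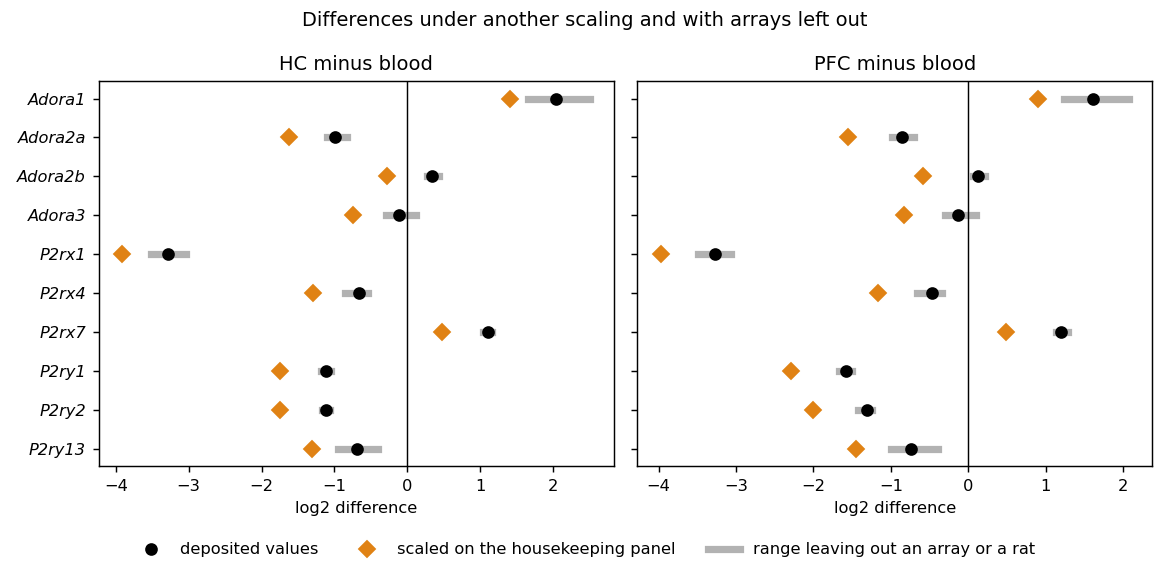
Log2 differences of each gene (rows) from blood in HC and in PFC, with black points for the deposited values, orange diamonds after scaling the arrays to the housekeeping panel and grey bars for the range over 12 fits without an array or a rat. Scaling moved every point to the left, and it moved Adora2b across 0 in both regions, to −0.28 in HC and −0.58 in PFC.

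The deposited values set all arrays to 1 distribution, which fixes what a difference is relative to. A panel of 10 housekeeping genes averaged 10.28 in blood, 10.91 in HC and 10.98 in PFC. Scaling to it moved the median of all probe sets from −0.30 to −0.93 in HC minus blood and from −0.31 to −1.02 in PFC minus blood. Adora1 stayed above blood at 1.41 in HC and 0.91 in PFC, P2rx7 at 0.47 and 0.49, and all genes that had been below blood stayed there. Whether the deposited or the panel scale is nearer to RNA per cell was not tested.

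Genes whose pattern over the 9 arrays was most like each member were read from the 14511 genes with 1 symbol. With 3 tissues and shared arrays, a high Pearson r is mainly a common order of tissues, and it is given as a description. P2rx7 was most like Tbc1d9b (r = 0.999), Atp2a2 (0.998) and Got2 (0.998), and P2rx1 most like Adgre4 (0.999), Hcls1 (0.999) and Gmip (0.998). P2ry1 was most like Wnt8b (0.997), Rb1 (0.997) and Wbp1 (0.994), and P2ry2 most like Use1 (0.996), Dennd5a (0.996) and Plek2 (0.996). Adora1 was most like Qsox2 (0.989), Pcyox1l (0.989) and Csdc2 (0.988), and Adora2a most like Rom1 (0.993), Pola2 (0.988) and Pafah1b3 (0.988). The nearest genes were less close for P2ry13 (Or8h10b, 0.977), P2rx4 (Eif3k, 0.974) and Adora2b (Dennd6a, 0.953).

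Other genes of purinergic signalling were read from 4 lists, of which 37 of 39 genes had a probe set of their own. In HC minus blood 10 were higher and 20 lower, where 29% and 46.5% of all probe sets were called. In PFC minus blood 10 were higher and 21 lower, where 28.7% and 47% were. The median differences were −0.43 and −0.36, beside −0.30 and −0.31 over all probe sets and −0.12 in both regions over named genes. Of 10 other genes listed with the P2 receptors by name or family, 1 was higher and 7 were lower in each region. Among the lower genes, P2rx2, P2rx3, P2rx5 and P2ry4 averaged below 6.2 in every tissue, so they were present in none. The background limit itself was higher in blood, at 5.53, than in HC (4.87) and PFC (4.84). Gpr17, an orphan receptor of the oligodendrocyte lineage related to the P2Y family, was the 1 higher, with means of 5.48 in blood, 8.52 in HC and 8.00 in PFC and differences of 3.04 ± 0.14 and 2.52 ± 0.14. Blood lay below its background limit of 5.53, so on the deposited scale Gpr17 was at least 7.95-fold higher in HC and at least 5.54-fold higher in PFC. P2ry10, a lymphocyte receptor, averaged 9.25 in blood and lay below the background limit in brain, so it was at least 20.9-fold lower in HC and at least 21.2-fold lower in PFC. P2ry6, the UDP receptor beside P2ry2, was lower by a log2 difference of −1.12 ± 0.10 in HC and −1.10 ± 0.10 in PFC. P2ry12, the ADP receptor next to P2ry13, had differences of −0.93 ± 0.19 and −1.02 ± 0.19.

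**Figure D4:**
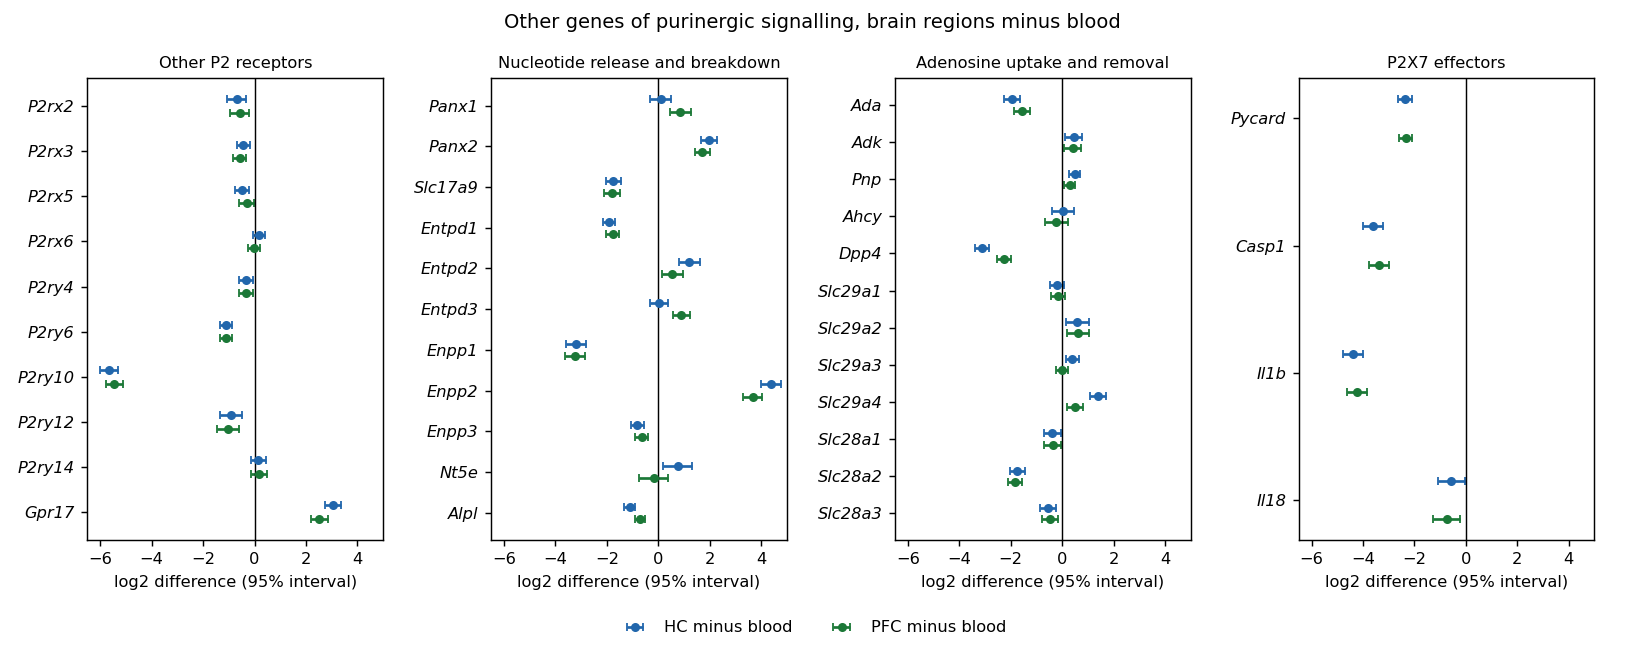
Log2 differences from blood with 95% intervals from limma for 37 other genes of purinergic signalling, in 4 lists, with blue for HC and green for PFC. P2ry10, Il1b and Casp1 lay far to the left and Enpp2 and Gpr17 far to the right, while all 4 genes of the P2X7 effector list lay left of 0.

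Enzymes and channels that release and break down nucleotides moved both ways. Of 11 measured, 4 were higher and 5 lower in HC, where 29% and 46.5% of all probe sets were called. In PFC 5 were higher and 5 lower, where 28.7% and 47% of all probe sets were. Enpp2, which encodes the secreted enzyme autotaxin, was higher by 4.38 ± 0.17 in HC and 3.67 ± 0.17 in PFC. Oligodendrocyte and choroid plexus cells are rich in it. The summed linear level of 5 oligodendrocyte markers was 6283 to 7513 in HC, 3278 to 4887 in PFC and 663 to 694 in blood. That of 5 choroid plexus markers was 1149 to 2584 in HC, 150 to 166 in PFC and 168 to 248 in blood, carried in HC by Ttr. Their part in the Enpp2 values was not tested. Panx2, a pannexin channel, was higher by 1.97 ± 0.13 and 1.71 ± 0.13. Enpp1, which splits ATP to AMP and pyrophosphate, differed by −3.21 ± 0.17 and −3.22 ± 0.17, and Entpd1 (CD39), which degrades ATP and ADP on leukocytes and microglia, by −1.92 ± 0.11 and −1.78 ± 0.11.

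Genes for adenosine uptake and removal numbered 12, of which 5 were higher and 5 lower in HC and 4 were higher and 5 lower in PFC. Of all probe sets, 29% were called higher and 46.5% lower in HC, and 28.7% and 47% in PFC. Slc29a4, a transporter of monoamines and adenosine, was higher by 1.40 ± 0.14 in HC and 0.50 ± 0.14 in PFC, the latter turning to −0.20 under housekeeping scaling. Its blood mean of 5.30 was below the background limit, so it was at least 2.25-fold higher in HC and at least 1.21-fold higher in PFC on the deposited scale. HC exceeded PFC in Slc29a4 by 0.90 ± 0.14 (limma adjusted p = 0.00559). Slc29a2, a nucleoside transporter, was higher by 0.59 ± 0.20 and 0.62 ± 0.20, which turned to −0.0338 and −0.0839 under that scaling. Dpp4, a further gene of this list, was lower, at 7.60 in blood, 4.48 in HC and 5.34 in PFC. Ada, which encodes adenosine deaminase, was lower as well, at 6.72, 4.78 and 5.15. Both HC means lay below the background limit.

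Inflammasome genes and cytokines that act downstream of P2X7 were read beside P2rx7, which was higher in both brain regions. Of 4 measured, 3 were lower in HC and all 4 in PFC, where 46.5% and 47% of all probe sets were. Il18, the gene not called in HC, differed there by −0.57 and overlapped blood (limma adjusted p = 0.0510). Il1b, the cytokine, averaged 9.36 in blood against 4.96 in HC and 5.12 in PFC, and the differences were −4.39 ± 0.18 and −4.23 ± 0.18. Casp1, the protease that cleaves its precursor, differed by −3.62 ± 0.17 and −3.39 ± 0.17, with the HC mean of 4.81 below the background limit, so that it was at least 11.9-fold lower there. The limma adjusted p of the 4 differences of Il1b and Casp1 lay between 1.9e-08 and 9.74e-08. Between HC and PFC, 5 of the 37 genes measured from the 4 lists were called, 2 higher and 3 lower in HC. Of all probe sets, 4.44% were called in either direction. None of the 5 was a P2 receptor, which at that share is not a result about those receptors.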

How the data were processed

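RNA from blood, HC and PFC of rats 2, 5 and 7 was hybridized to 9 arrays, 1 per tissue and rat. Before deposit, the authors applied quantile normalization and RMA to 29215 probe sets, and the deposited values are read as log2 (1.53 to 14.01), since the base is not named. RMA is named in the submitters' processing notes. Quantile normalization gives the arrays nearly the same distribution, so a tissue with fewer expressed genes can show shifts in all others. The detection p-values of the study were not used. The labels mention 6 rats, and the animals used here are those on the arrays. A sample the authors omitted on quality was not analysed here.

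Values were fitted per probe set in R 4.3.3 with limma 3.58.1, using the 3 tissues as the only term and eBayes moderation. P-values were adjusted by Benjamini-Hochberg across all 29214 probe sets and called under 0.05. The methods of the study compared levels against the cut-off of 6.2. No exact permutation test is given, since the smallest p it allows here is 0.1. The number of arrays limits the precision. Equal numbers mark the same animal. Deviations from tissue means correlated at −0.05 to 0.23 between arrays of a rat and at −0.22 to 0.10 between arrays of different rats.

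Symbols came from the array annotation, with 15316 probe sets of 1 symbol, 317 of several and 13581 of none, and 15285 were matched to a gene table of assembly GRCr8. Promoters were from RefSeq in the same build, and no coordinates of probes were used. Whether probes lie where genes overlap was not analysed. A gene with several probe sets was represented by that of highest mean. Chemosensory receptors, found by current or older symbol, gave 1292 probe sets, whose 95th percentile in a tissue is its background limit.

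The members and gene lists were chosen with earlier results of these data known. The text names all members, up to 4 genes per pathway list (the 2 widest called higher and the 2 widest called lower in HC minus blood), up to 3 genes most like each member present in a tissue, and markers by list. P2ry12 was added after its values were seen, as the neighbour of P2ry13, as were the promoters shown. The procedure was tested on simulated data. Alternatives were a fixed or random rat block, a filter on dim probe sets, 1 probe set per gene, scaling to the median or a housekeeping panel, fits on 6 arrays, eBayes with trend, other cut-offs and leaving out each array or rat, for which limma pools the spread over tissues. Random blocks used statmod 1.5.0, and figures matplotlib 3.10.9 in Python 3.11.15.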

Additional observations from a re-analysis of the deposited data

How the results depend on the processing

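Each member was refitted in 12 fits without an array or a rat and under up to 8 other settings, and 551 of the resulting values kept their direction and side of the threshold, 28 lost the call, 3 gained one and 13 changed sign without a call under either setting. The 2 others turned, both of Adora2b under housekeeping scaling, at −0.28 in HC and −0.58 in PFC. That scaling also turned Slc29a4 in PFC (−0.20) and Slc29a2 in HC (−0.0338) and PFC (−0.0839), left 1 member higher in PFC than in blood in place of 2, called 0 members and 3 pathway genes between HC and PFC, and changed the split of all probe sets from 8463 higher and 13581 lower to 5185 and 20036 in HC minus blood, and from 8372 and 13719 to 4819 and 20733 in PFC minus blood.

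The replicate block, with the rat as the pair, called 0 members between HC and PFC, where P2ry1 missed at an adjusted p of 0.0565 in limma, and changed no other member's call. The 6 brain arrays alone called 2 members, 11 pathway genes and 3644 probe sets between the regions, against 1, 5 and 1296 in the 9-array fit. Leaving out 1 array or rat gave 0 to 1 members, 0 to 10 pathway genes and 414 to 2127 probe sets, the highest without the blood array of rat 5. A filter on dim probe sets and 1 probe set per gene each called 8 pathway genes there. They tested fewer probe sets, and called 14163 and 11605 in HC minus blood and 14176 and 11644 in PFC minus blood. A presence cut-off of 7.2 left 1 member in HC and 1 in PFC, and Adora2a, P2rx1, P2rx4, P2ry2 and P2ry13 in blood. A cut-off from chemosensory receptors gave 9 in PFC. By that cut-off all members but P2rx1 were present in HC as in PFC, and every member was present in blood, Adora3 included. The 3 arrays per tissue and the spread of blood limit what could be called, and values near the background limit understate differences.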
